A study of Mus musculus with 8 samples.

Results

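The genes described here carry the second signal that a dendritic cell (DC) gives to a T cell. They were 9 genes in 3 roles: the B7 ligands Cd80, Cd86, Icosl, Cd274 and Pdcd1lg2, the maturation receptors Cd40 and Cd83, and the adhesion receptors Icam1 and Cd44. They were chosen by name as the B7 family and CD40 costimulation set, and each had 1 row among the 23356 genes of the table. All 9 passed the filter on low values, which kept 11397 genes.

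A T cell that meets its antigen on a DC needs costimulation to become activated. CD80 and CD86 deliver it through CD28 and are also bound by the inhibitory receptor CTLA-4, ICOSL acts through ICOS, and PD-L1 (Cd274) and PD-L2 (Pdcd1lg2) engage the inhibitory receptor PD-1. CD40 receives CD40 ligand from helper T cells, and DCs that mature raise surface CD80, CD86, CD40 and CD83. GEF-H1 is a guanine nucleotide exchange factor for RhoA that is held inactive on microtubules and released when they depolymerize, and ansamitocin-P3 is a maytansinoid that destabilizes microtubules.

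Messenger RNA was sequenced from bone marrow-derived DCs (BMDCs) in 4 groups of 2 libraries, 8 libraries in all: wild-type (WT) control, WT treated with ansamitocin-P3, GEF-H1-/- control and GEF-H1-/- treated with ansamitocin-P3. Treated cells received 100 nM for 5 h. All 4 groups came from C57BL/6 bone marrow (C57BL/6N in the study's methods) grown for 6 days with GM-CSF and IL-4 at 10 ng/ml each, and GEF-H1-/- mice lack Arhgef2, the gene of GEF-H1, in all cells, so the difference was not limited to DCs. Whether the libraries of a group came from separate animals was not given. The comparisons ask how microtubule destabilization changes these genes and how far the change differs without GEF-H1.

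The deposited values are FPKM (sequenced fragments per kilobase of transcript, scaled to the mapped fragments of a library), 1 pooled value for each gene and group with lower and upper 95% bounds from Cuffdiff. The value of each library is not held in the table, so the spread between replicates is unknown and no p-value can be given. A change is given as a log2 difference of FPKM + 1. It is followed by a combined 95% interval made from the bounds of the groups compared. A gene was called past a log2 difference of 1 or -1, and 2 groups are described as apart when their bounds did not overlap. Read depth is not in the table, and the bounds of the members lay 17.9 to 23.7% on average from their values, against a median of 22.6 to 22.7% over the tested genes of each group.

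Arhgef2 stood at 42.3 FPKM in WT control and 45.9 in WT treated cells, and at 4.59 and 4.16 in the 2 GEF-H1-/- groups, so it ran with the labels. DC markers were present in every group, with H2-Aa between 753 and 987 FPKM, Itgax between 102 and 175 and Zbtb46 between 9.09 and 22.1. Flt3 was low, between 1.07 and 2.63 FPKM. Zbtb46 was lower in GEF-H1-/- than in WT cells, with log2 differences of -0.65 in control and -0.70 in treated cells. H2-Aa was lower too (-0.28 and -0.39), and Itgax was higher (0.34 and 0.40). Markers of other cells were present too, and 5 of the 6 neutrophil genes had a row, with a summed level of 30320 FPKM in WT control, 35750 in WT treated, 20980 in GEF-H1-/- control and 21450 in GEF-H1-/- treated cells. In bulk RNA, fewer cells of a type and less RNA per cell cannot be told apart.

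Cd80 changed most. Its level was 37.2 FPKM in WT control, 139 in WT treated, 23.4 in GEF-H1-/- control and 44.9 in GEF-H1-/- treated cells. WT treated cells stood far above the other 3 groups, and GEF-H1-/- treated cells reached a level whose bounds (33.9 to 54.8) overlapped those of WT control cells (27.9 to 45.2). In WT the change was 3.74-fold, a log2 difference of 1.88 (combined 95% interval 1.40 to 2.35), the 92nd from the highest of the 11397 tested genes. In GEF-H1-/- cells it was 1.91-fold, a log2 difference of 0.91 (0.43 to 1.39), the 115th from the highest there. The bounds of control and treated cells were apart in both genotypes. The GEF-H1-/- change was smaller by 0.97 on the log2 scale (combined 95% interval of the difference -1.64 to -0.29).

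Cd86, the other ligand of CD28 and CTLA-4, moved less. It stood at 50.8 FPKM in WT control, 71.8 in WT treated, 43.8 in GEF-H1-/- control and 54.1 in GEF-H1-/- treated cells. Bounds overlapped between all groups compared, and the log2 differences with drug were 0.49 (0.11 to 0.87) in WT and 0.30 (-0.08 to 0.68) in GEF-H1-/- cells. The ratio of Cd80 to Cd86, both per length, was therefore 0.733 in WT control and 1.94 in WT treated cells, and 0.535 and 0.830 in GEF-H1-/- cells. WT treated cells were the 1 group with more Cd80 than Cd86.

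Icosl, the ligand of ICOS, was low and ran the other way. It stood at 18.8 FPKM in WT control, 14.6 in WT treated, 20.2 in GEF-H1-/- control and 13.6 in GEF-H1-/- treated cells. The log2 difference with drug was -0.35 (-0.72 to 0.02) in WT, where bounds overlapped, and -0.54 (-0.90 to -0.17) in GEF-H1-/- cells, where they were apart. Both genotypes had less Icosl after treatment, and the interval of the difference between them ran from -0.71 to 0.33.

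The PD-1 ligands were both higher after treatment. Cd274 stood at 61.9 FPKM in WT control, 117 in WT treated, 70.4 in GEF-H1-/- control and 97.2 in GEF-H1-/- treated cells. Its log2 difference with drug was 0.91 (0.51 to 1.30) in WT, with bounds apart, and 0.46 (0.06 to 0.86) in GEF-H1-/- cells, with bounds that overlapped. Pdcd1lg2 stood at 59.1 FPKM in WT control, 133 in WT treated, 59.5 in GEF-H1-/- control and 83.9 in GEF-H1-/- treated cells. The 2 control groups had nearly the same Pdcd1lg2 level, and the treated WT cells were apart from the treated GEF-H1-/- cells. Its log2 difference was 1.16 (0.72 to 1.60) in WT and 0.49 (0.04 to 0.94) in GEF-H1-/- cells, a difference between the genotypes of -0.67 (-1.30 to -0.04), whereas for Cd274 that difference was -0.45 (-1.01 to 0.12).

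**Figure D1:**
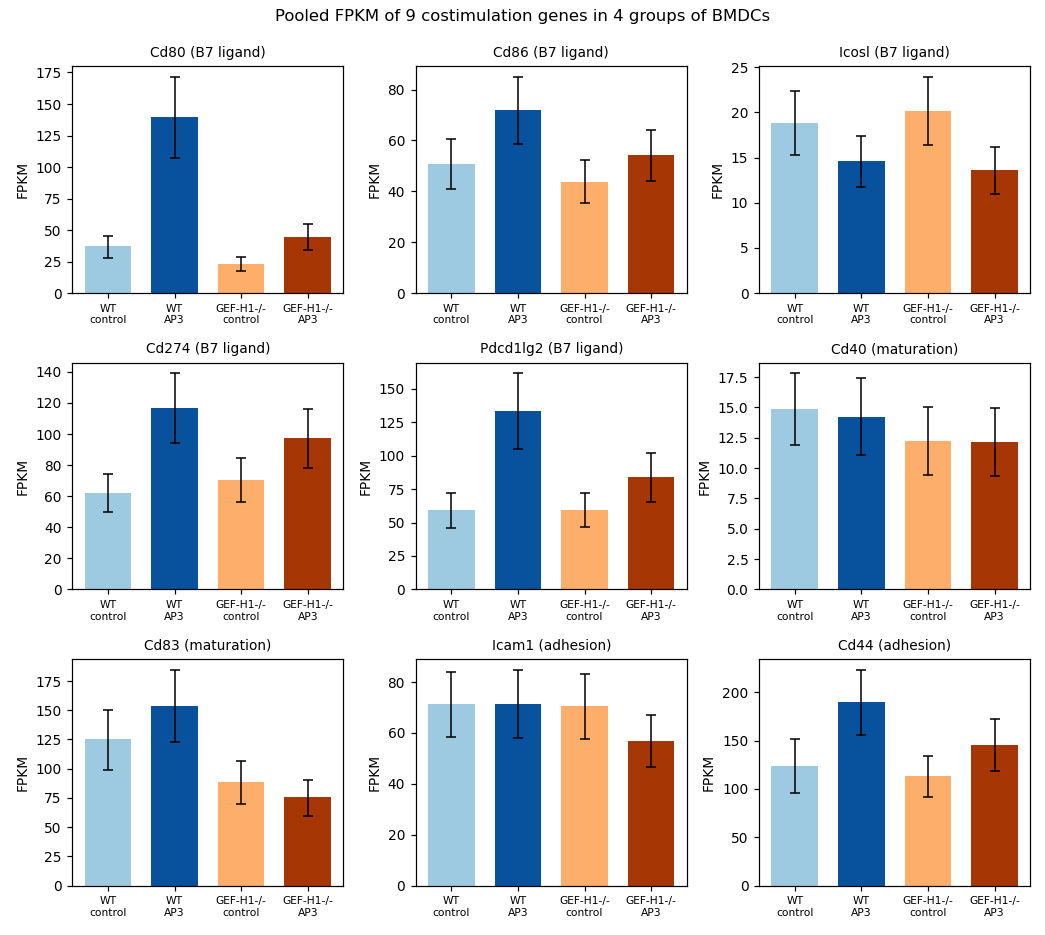
Pooled FPKM (y axis, starting at 0, scaled per gene) of the 9 genes in the 4 groups of BMDCs, where AP3 is ansamitocin-P3 and whiskers are the Cuffdiff 95% bounds. Every gene but Icosl and Cd40 has its highest value in WT treated cells, though only just for Icam1. Cd80 is at 139 FPKM there against 44.9 in GEF-H1-/- treated cells.

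The pooled level of the B7 ligands followed these changes. Summed over the 5 genes it was 227.8 FPKM in WT control, 475.6 in WT treated, 217.4 in GEF-H1-/- control and 293.6 in GEF-H1-/- treated cells. Cd80 supplied 16.4% of the sum in WT control and 29.3% in WT treated cells, and 10.8% and 15.3% in GEF-H1-/- cells. The share of Icosl was 8.27% and 3.07% in WT and 9.28% and 4.63% in GEF-H1-/- cells. The ligands of CD28 and ICOS together stood to the ligands of PD-1 at a ratio of 0.884 in WT control and 0.903 in WT treated cells, and at 0.673 and 0.622 in GEF-H1-/- cells. Treatment of WT cells thus left that ratio nearly where it was, since both kinds of ligand were higher. These sums carry no error, since the bounds were given for single genes. They were not scaled to the FPKM of all genes, which summed to 739523 in WT treated cells. That sum was 609360 in WT control, 599331 in GEF-H1-/- control and 617423 in GEF-H1-/- treated cells.

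**Figure D2:**
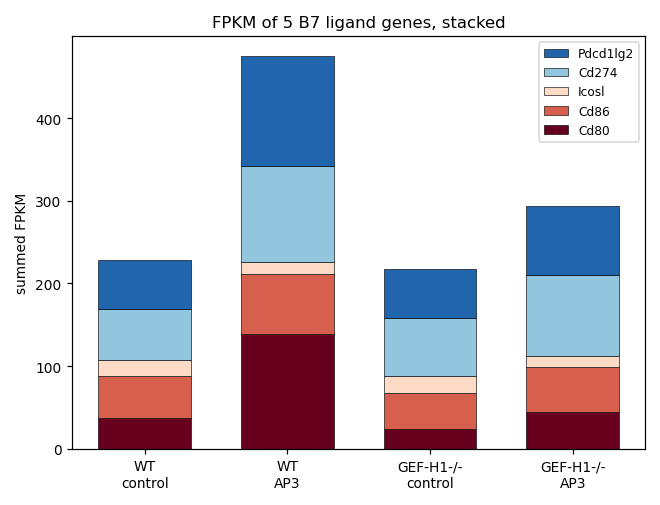
Stacked FPKM (y axis) of 5 B7 ligand genes in each group, with the ligands of CD28 and ICOS in red shades below and the ligands of PD-1 in blue shades above; AP3 is ansamitocin-P3. The stack reaches 475.6 FPKM in WT treated cells against 293.6 in GEF-H1-/- treated cells, and the darkest block, Cd80, differs most. Levels are as deposited, and the FPKM sum over all genes was also highest in WT treated cells.

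Cd274 and Pdcd1lg2 are neighbours on chromosome 19 (chr19:29367438-29388094 and chr19:29410919-29472927, mm10, both on the plus strand), 22.8 kb apart. Cd80 (chr16:38458933-38486932, plus strand) and Cd86 (chr16:36603869-36666077, minus strand) lie 1793 kb apart on chromosome 16. The remaining members are Icosl (chr10:78069368-78079525), Cd83 (chr13:43785107-43803132), Icam1 (chr9:21015960-21028796), Cd40 (chr2:165055636-165071654), all on the plus strand, and Cd44 (chr2:102811142-102901665, minus strand). Among the 16 nearest measured genes on either side of the members that are not members themselves, WT log2 differences ran from -0.58 to 1.02, and 1 of them was past 1. That 1 was Dnmt3l beside Icosl, at 0.651 FPKM in WT control and 2.36 in WT treated cells. Adprh and Timmdc1, on either side of Cd80, had WT log2 differences of 0.27 and -0.24, both well inside the threshold. Stfa3, beside Cd86, differed by genotype, at 133 and 200 FPKM in WT control and treated cells and 11.2 and 17.3 in the GEF-H1-/- groups. C030046E11Rik, beside Pdcd1lg2, was at 0.50 in WT and 0.47 in GEF-H1-/- cells.

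The RefSeq promoter table (GRCm38.p6) held an entry for 6 of the 9 members, Cd80, Icosl, Cd274, Pdcd1lg2, Icam1 and Cd44. The 250 bases before the start site are printed below for the 4 that held a motif match. These are the pair past the threshold in WT, and Icosl and Icam1, which were called in neither genotype. Each is read 5′ to 3′ on the plus strand, and capitals mark matches to 7 motifs searched on both strands.
Cd80, chr16:38458683-38458932: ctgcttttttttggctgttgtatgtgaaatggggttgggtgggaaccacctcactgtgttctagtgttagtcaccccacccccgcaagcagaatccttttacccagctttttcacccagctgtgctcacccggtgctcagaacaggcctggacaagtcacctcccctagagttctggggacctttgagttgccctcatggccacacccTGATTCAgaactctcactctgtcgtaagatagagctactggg
Pdcd1lg2, chr19:29410669-29410918: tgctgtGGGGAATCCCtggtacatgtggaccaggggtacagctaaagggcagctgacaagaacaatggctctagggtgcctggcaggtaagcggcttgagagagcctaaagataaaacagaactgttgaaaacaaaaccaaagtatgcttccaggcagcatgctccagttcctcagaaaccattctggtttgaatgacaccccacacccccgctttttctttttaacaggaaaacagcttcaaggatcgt
Icosl, chr10:78069118-78069367: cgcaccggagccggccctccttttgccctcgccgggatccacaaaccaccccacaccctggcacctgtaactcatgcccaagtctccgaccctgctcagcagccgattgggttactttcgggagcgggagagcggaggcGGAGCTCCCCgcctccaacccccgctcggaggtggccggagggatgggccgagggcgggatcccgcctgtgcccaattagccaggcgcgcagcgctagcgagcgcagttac
Icam1, chr9:21015690-21015939: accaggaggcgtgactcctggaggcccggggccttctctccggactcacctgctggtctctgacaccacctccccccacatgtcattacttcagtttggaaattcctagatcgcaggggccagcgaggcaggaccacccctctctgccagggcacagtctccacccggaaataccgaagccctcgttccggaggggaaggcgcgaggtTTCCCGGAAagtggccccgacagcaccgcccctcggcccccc

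Cd80 held a match to the AP-1 motif, TGANTCA, 42 to 36 bases before its RefSeq start. The GENCODE annotation starts Cd80 farther upstream, at 38455561, so this window lies inside the gene as GENCODE draws it. AP-1 letters stood in 6.75% of all 32851 promoters over the same window and in 4.64% of the 10874 of tested genes. Pdcd1lg2 held a match to the NF-κB consensus 244 to 235 bases before its start and Icosl 1 at 111 to 102 bases, against 7.25% of all promoters and 8.91% of those of tested genes. Icam1 held a match to the GAS motif of STAT factors, TTCNNNGAA, 42 to 34 bases before its RefSeq start, which lies slightly before the start in the deposited table, against 7.02% and 5.98%. The CRE motif TGACGTCA, found in 1.55% of all promoters, was in none of the 6. The C/EBP motif TTGCNNAA (9.56%) was in none either, nor were the letters of a TATA box (12.4%), searched as TATAAA, or of the SRF CArG box (1.47%). Cd274 and Cd44, also called in neither genotype, held none of the 7 motifs. A match is a description of letters, and no match says only that these letters are not in this window. Icosl also had the most CpG pairs among the 6, 23 against 3 in both Cd80 and Pdcd1lg2 and a median of 6 over all promoters.

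Cd40, the receptor for CD40 ligand, did not differ with drug beyond its bounds. It stood at 14.9 FPKM in WT control, 14.2 in WT treated, 12.2 in GEF-H1-/- control and 12.2 in GEF-H1-/- treated cells. All 4 groups overlapped, with log2 differences of -0.06 (-0.46 to 0.35) in WT and -0.00 (-0.44 to 0.43) in GEF-H1-/- cells.

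Cd83, a receptor that marks mature DCs and stabilizes MHC class II and CD86 at the surface, differed between the genotypes. It stood at 125 FPKM in WT control, 154 in WT treated, 88.8 in GEF-H1-/- control and 75.6 in GEF-H1-/- treated cells. Both GEF-H1-/- groups were below both WT groups, and the treated groups were apart. The log2 difference with drug was 0.30 (-0.12 to 0.72) in WT and -0.23 (-0.65 to 0.19) in GEF-H1-/- cells, and each interval included 0. The treated genotypes differed by -1.02 (-1.43 to -0.60), and the control genotypes by -0.49 (-0.92 to -0.07).

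Icam1, the ligand of the integrins LFA-1 and Mac-1, stood at 71.2 FPKM in WT control, 71.5 in WT treated, 70.5 in GEF-H1-/- control and 56.8 in GEF-H1-/- treated cells. The first 3 groups were nearly level and all 4 overlapped, with log2 differences with drug of 0.01 (-0.37 to 0.38) and -0.31 (-0.67 to 0.06). Cd44, the receptor for hyaluronan, stood at 124 FPKM in WT control, 189 in WT treated, 113 in GEF-H1-/- control and 146 in GEF-H1-/- treated cells. Treated WT cells were apart from WT control cells. Its log2 differences were 0.61 (0.19 to 1.03) in WT and 0.36 (-0.02 to 0.74) in GEF-H1-/- cells.

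The order of the levels shifted with treatment. In WT control cells Cd83 and Cd44 stood highest with overlapping bounds, Icam1, Cd274, Pdcd1lg2, Cd86 and Cd80 followed with each neighbour overlapping, and Icosl and Cd40 were lowest, apart from Cd80. In WT treated cells Cd80 moved from 7th to 3rd place, behind Cd44 and Cd83, and the first 5 genes overlapped from neighbour to neighbour. In GEF-H1-/- treated cells Cd80 stayed in 7th place and Cd44 was apart from Cd274, the next gene. Icosl and Cd40 were the lowest pair in every group. The members were well expressed: in WT control cells Cd83 stood above 94.5% of tested genes and Cd40 above 55.5%.

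Over the 9 genes the drug change in WT had a median log2 difference of 0.49, against 0.00 over all tested genes. Past 1 were 2 of 9, Cd80 and Pdcd1lg2, where 3.66% of tested genes were, and past -1 were 0 of 9, where 1.28% were. Treated and control bounds were apart for 4 of 9 in the higher direction, Cd80, Pdcd1lg2, Cd274 and Cd44, where 9.19% of tested genes were. In GEF-H1-/- cells the median was 0.30, against -0.01 over all genes. There 0 of 9 were past 1 and 0 of 9 past -1, with shares over all tested genes of 0.807% and 0.272%. Bounds were apart for 1 gene in the higher direction, Cd80 (2.75% of tested genes), and for 1 in the lower, Icosl (0.956%). With all groups scaled to the same FPKM sum, the median of all genes in WT moved to -0.24 and Cd80 (1.60) stayed past 1 while Pdcd1lg2 (0.88) did not. These counts describe a set of 9 genes that was picked by name with earlier results known.

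**Figure D3:**
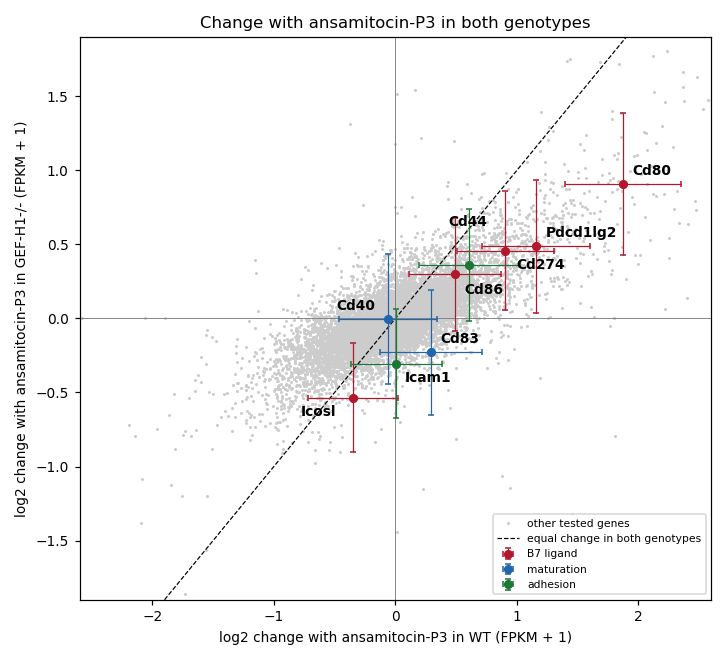
Log2 change with ansamitocin-P3 in WT (x axis) against GEF-H1-/- cells (y axis) for the 9 genes, coloured by role with combined 95% intervals, over all other tested genes in grey; 80 tested genes lie outside the frame. Cd80 sits at 1.88 and 0.91 and Pdcd1lg2 at 1.16 and 0.49, both below the dashed line of equal change.

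In control cells no member was called between the genotypes. Past 1 or -1 were 0 of 9 genes, where 1.26% and 0.614% of tested genes were. The lowest log2 differences were those of Cd80 at -0.65 (-1.12 to -0.17) and Cd83 at -0.49, and the bounds of each overlapped between the genotypes. After treatment all 9 genes had a lower value in GEF-H1-/- than in WT cells, where 46.92% of tested genes had a higher one. The median of the 9 was -0.38 against -0.03 over all genes. Past -1 were 2 of 9, Cd80 at -1.61 (-2.09 to -1.13) and Cd83 at -1.02, where 2.06% of tested genes were. Bounds were apart for 3 of 9 in that direction, Cd80, Cd83 and Pdcd1lg2 (6.73% of tested genes), with Pdcd1lg2 at -0.66 (-1.10 to -0.22). These comparisons share groups with those of the drug change. Scaling all groups to the same FPKM sum raised the median of all genes in this comparison to 0.20 and turned Icosl (0.15) and Cd40 (0.03) above 0.

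The difference between the drug changes was below 0 for 8 of 9 genes, where 48.35% of tested genes were above 0. The median of the 9 was -0.31 against -0.01 over all genes, and 0 of 9 were past -1 (1.36% of tested genes). The combined interval lay under 0 for Cd80 and Pdcd1lg2, 2 of 9, as it did for 4.44% of tested genes. For Pdcd1lg2 its upper end was -0.04, close to 0. Cd40, at 0.05 (-0.54 to 0.65), was the member above 0. For the other 7 members, Cd40 included, the intervals spanned 0, so a difference between the drug changes was not shown for them at this precision. Scaling all groups to the same FPKM sum moved the median of all genes to 0.19, Cd80 to -0.73 and Pdcd1lg2 to -0.44. That scaling also turned Cd86 (0.04) and Icosl (0.03) above 0, and intervals were not computed under it.

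**Figure D4:**
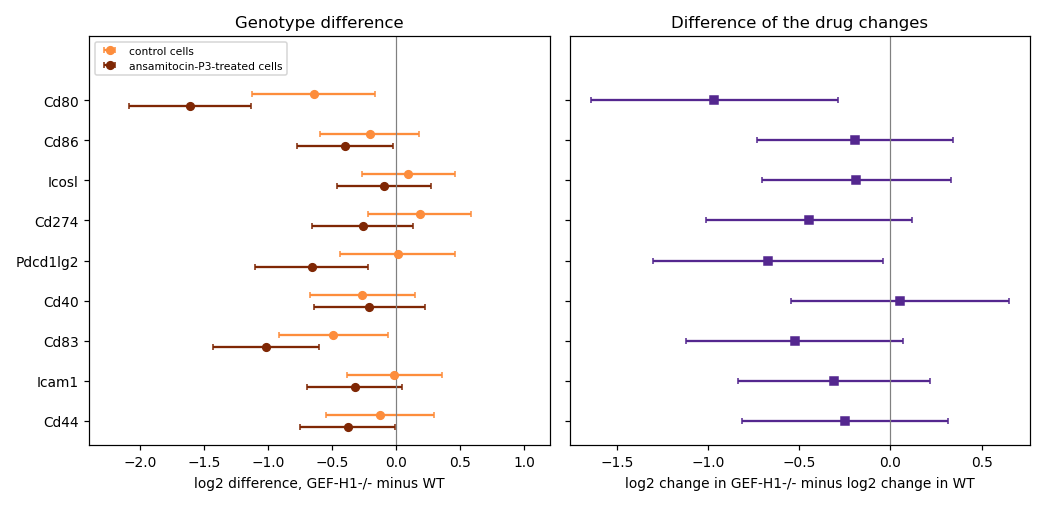
Left, log2 difference of GEF-H1-/- minus WT cells for the 9 genes in control (light) and ansamitocin-P3-treated cells (dark); right, the log2 drug change in GEF-H1-/- minus that in WT cells, all with combined 95% intervals. Cd80 lies farthest left in both panels, at -1.61 in treated cells and -0.97 for the difference of the drug changes.

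Some marker genes of other cells differed between the genotypes as well. Camp, a neutrophil granule gene, stood at 189 and 202 FPKM in WT control and treated cells and at 14.98 and 18.7 in GEF-H1-/- cells. S100a8 stood at 19401 and 23110 against 10856 and 11199, but its WT lower bounds, 9356 and 11072, lay below the GEF-H1-/- values. S100a9 was nearly level, at 10678 and 12394 against 10004 and 10130. Mpo and Elane, made by early granulocytes, ran the other way, Mpo at 26.4 and 21.7 in WT and 63.1 and 59.0 in GEF-H1-/- cells. Elane stood at 20.7 and 20.2 against 45.9 and 39.2, with a lower bound of 0 in every group. Of 5 mast cell and basophil genes, 3 were measured above 1 FPKM, with summed levels of 100.9 and 105.6 in WT and 185.6 and 178.0 in GEF-H1-/- cells, and Mcpt4 and Tpsb2 were at or near 0. The part of these cells in the genotype differences of the 9 genes was not tested.

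The summed level of all 6 macrophage genes stood at 236.8 FPKM in control and 417.6 in treated WT cells, against 275.2 and 263.4 without GEF-H1. Cd14, the lipopolysaccharide coreceptor, was at 14.7 and 250 FPKM in WT and 12.4 and 27.3 in GEF-H1-/- cells, and it was the 1 gene of the 6 that was higher in treated WT cells. The other 5 had WT log2 differences below 0, from -1.86 for Mertk, a receptor for apoptotic cells, to -0.10 for Cd68, with bounds apart for Mertk and Emr1, and the median of the 6 was -0.42 in WT and -0.17 in GEF-H1-/- cells. All 7 DC genes summed to 5375 and 6711 in WT and 4498 and 4801 in GEF-H1-/- cells, sums made mostly of Cd74. Their median log2 difference with drug was 0.09 in WT and 0.03 in GEF-H1-/- cells, and Flt3 (-0.58) and Ciita (-0.98) were lower in treated WT cells with bounds apart. T cell genes, 5 of 6 measured, summed to 23.2 and 26.2 against 16.4 and 16.3 and Cd4 was near 0. B cell genes, 4 of 5, summed to 16.6 and 10.2 against 9.38 and 6.56, with Pax5 under 0.4 FPKM in all groups. Of 4 NK cell genes only Gzmb passed, and their sum was 51.2 and 73.1 against 25.8 and 26.03, and 2 of 5 genes of fibroblasts and endothelium passed, with sums of 48.6 and 65.5 against 59.9 and 63.9 that were mostly Pecam1. The part of these cells in the drug changes was not tested.

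The receptors that the ligands engage on T cells were scarce, as 4 of 6 genes passed the filter. Icos was at 2.31 FPKM in WT control and 1.54 in WT treated cells. Cd28 was at 1.15 and 1.88, Pdcd1 at 0.946 and 1.30, and Ctla4 at 0.134 and 1.04 in the same groups, with bounds apart for Ctla4 alone. In GEF-H1-/- control and treated cells Icos was at 1.29 and 0.732, Cd28 at 1.52 and 2.05 and Pdcd1 at 1.38 and 0.885. Ctla4 was at 0.064 and 0.070 there, so it passed the filter only through WT treated cells. Cd40lg and Btla stayed under 1 FPKM in every group. None of the 4 was past 1 or -1 in either genotype.

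Among 11 other B7 and checkpoint ligand genes, 5 passed the filter and 1 was past 1 in WT. Pvr (CD155, a ligand of TIGIT, CD96 and CD226) stood at 6.50 FPKM in WT control, 31.3 in WT treated, 4.20 in GEF-H1-/- control and 9.63 in GEF-H1-/- treated cells. Its log2 differences with drug were 2.11 and 1.03, with bounds apart in both genotypes, a course close to that of Cd80. The related Pvrl2 was at 0.38 in WT and 0.01 in GEF-H1-/- cells on the log2 scale. VISTA, listed as 4632428N05Rik, was at -0.30 and -0.32, the herpesvirus entry mediator Tnfrsf14 at -0.38 and -0.38, and galectin Lgals9 at -0.14 and -0.14. The median log2 difference of the 5 was -0.14 in both genotypes.

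Of 6 costimulatory ligand genes of the TNF family, 4 passed. Tnfsf4 (OX40 ligand) stood at 13.9 FPKM in control and 34.1 in treated WT cells, against 6.59 and 14.8 without GEF-H1, log2 differences of 1.23 and 1.06 with bounds apart in both. Tnfsf9 (4-1BB ligand) stood at 1.81 FPKM in control and 4.59 in treated WT cells, against 1.43 and 1.60 without GEF-H1, with bounds apart in WT. OX40 ligand thus had nearly equal changes in the genotypes, and 4-1BB ligand did not, at 0.99 and 0.10. Tnfsf8 (CD30 ligand) was at 0.04 and 0.56, with bounds apart in GEF-H1-/- cells, and Tnfsf14 at 0.05 and -0.24. Tnfsf18 and Cd70 stayed under 1 FPKM.

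Downstream of Cd40, all 12 genes passed and 1 was past 1 in WT. The adaptor Tank stood at 29.0 FPKM in control and 72.8 in treated WT cells, against 26.3 and 48.3 without GEF-H1, log2 differences of 1.30 and 0.86. The adaptor Traf1 stood at 49.1 and 98.2 in WT, against 43.1 and 73.2, differences of 0.98 and 0.75, and Nfkb2, a subunit of the noncanonical NF-κB pathway, at 63.8 and 99.7, against 55.4 and 69.2. So the bounds were apart for these 3 in WT and for Tank and Traf1 in GEF-H1-/- cells, while Cd40 itself was level. The medians of the 12 were 0.43 in WT and 0.18 in GEF-H1-/- cells.

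March1, the ubiquitin ligase that removes CD86 and MHC class II from the DC surface, was lower after treatment in both genotypes. It stood at 8.96 FPKM in WT control, 4.23 in WT treated, 8.83 in GEF-H1-/- control and 5.30 in GEF-H1-/- treated cells, log2 differences of -0.93 and -0.64 with bounds apart in both. The related March8 and the PD-L1 stabilizers Cmtm6 and Cmtm4 had overlapping bounds, with WT log2 differences of 0.04, 0.13 and 0.20. None of these 4 genes was past 1 or -1.

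Among 16 partner genes of Icam1 and Cd44, 11 passed and 1 was past 1 in WT. Mmp14, a membrane protease that cleaves CD44, stood at 4.46 FPKM in control and 11.9 in treated WT cells, against 11.6 and 12.8 without GEF-H1, so that GEF-H1-/- control cells already stood at the level of WT treated cells. Spp1 (osteopontin, a CD44 ligand) stood at 166 and 271 in WT, against 377 and 474, and Msn (moesin, which ties CD44 and ICAM1 to actin) at 358 and 535, against 349 and 425. The bounds of these 3 were apart in WT and overlapped in GEF-H1-/- cells. The integrin genes of the ICAM1 receptors, Itgal, Itgam and Itgb2, had WT log2 differences of 0.31, 0.32 and 0.36 with overlapping bounds.

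In a list of 16 DC maturation genes, 14 passed and 1 was past 1 in WT. Ccr7, the receptor that guides mature DCs to lymph nodes, stood at 258 FPKM in control and 602 in treated WT cells, against 234 and 405 without GEF-H1, log2 differences of 1.22 and 0.79 with bounds apart in both. Stat4 was at 0.80 and 0.54, also apart in both, and H2-M2 at -0.78 and -0.09, apart in WT. Il12b, a subunit of interleukin-12, was at 0.48 in WT, where bounds overlapped, and 0.65 in GEF-H1-/- cells, where they were apart. The 2 genes shared with the Cd40 list, Relb and Birc3, were at 0.55 and 0.43 in WT with overlapping bounds. The medians of the 14 were 0.13 and 0.12.

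**Figure D5:**
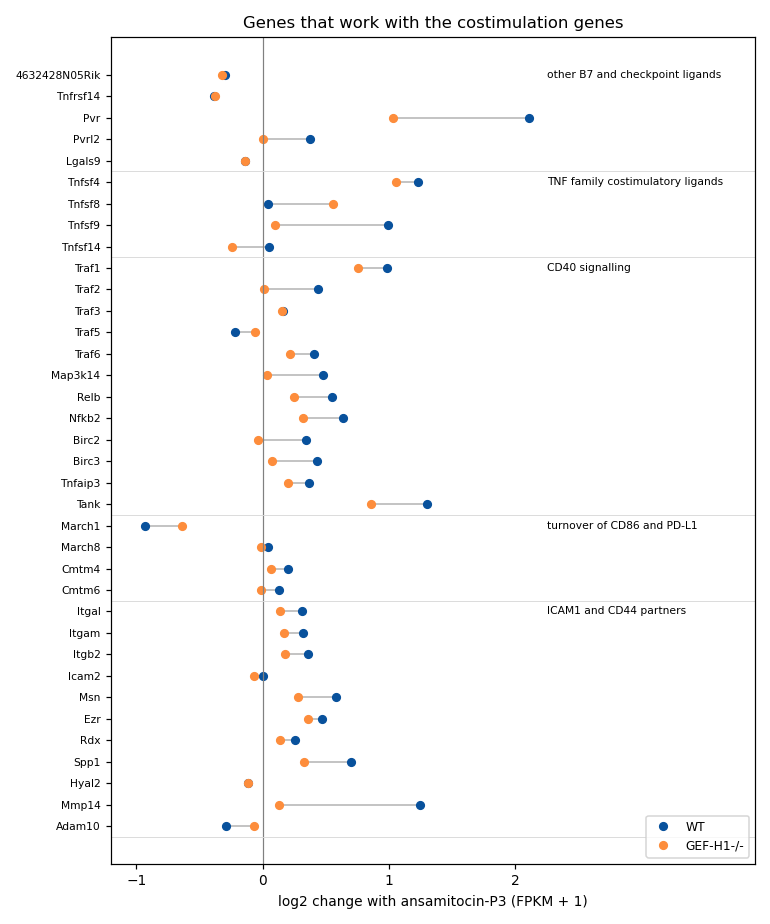
Log2 change with ansamitocin-P3 (x axis) in WT (blue) and GEF-H1-/- cells (orange) for each gene above the filter in 5 lists of partner genes. Pvr, Tank, Mmp14 and Tnfsf4 lie past 1 in WT, at 2.11, 1.30, 1.24 and 1.23, and March1 lies lowest at -0.93.

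The genes whose pattern over the 4 groups lay closest to each member were found among 8817 genes by the distance between log2 levels centred on each gene's mean. For Cd80 they were Crem and Ets2, both transcription factors, and Pvr, at distances of 0.16, 0.17 and 0.20. Crem stood at 16.1 FPKM in control and 58.0 in treated WT cells, against 8.83 and 16.8 without GEF-H1, and Ets2 at 14.3 and 61.4, against 9.97 and 20.6. The nearest member to Cd80 was Pdcd1lg2, at a distance of 0.996, and the farthest was Icosl, at 2.19.

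The other B7 ligands lay nearest to genes of other functions. They were Exo5, Pi4k2b and Slc16a3, a lactate exporter, for Pdcd1lg2, and Arfgap3, 5830432E09Rik and Alcam, an adhesion ligand of CD6 on T cells, for Cd274. Alcam stood at 9.90 FPKM in control and 20.3 in treated WT cells, against 12.2 and 17.0 without GEF-H1. Cd86 lay nearest to Atp8b2, Ppp1r11 and the acetyltransferase Kat2b, and Icosl to Ccdc28b and Thap11. Within the set, Cd86 and Cd44 were the closest pair at 0.11, and Cd274 lay 0.34 from its chromosomal neighbour Pdcd1lg2.

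For the receptors, Cd44 lay nearest to Cdc42bpb, Rala and Rock2, 2 cytoskeletal kinases and a small GTPase, with Rock2, a kinase activated by RhoA, at 15.5 and 23.3 FPKM in WT control and treated cells and 14.1 and 18.2 in the GEF-H1-/- groups. Cd83 lay nearest to Gyg, Rilpl2 and Cebpe, a transcription factor of granulocyte maturation. Cebpe stood at 41.6 and 46.8 FPKM in WT and 27.6 and 25.1 in GEF-H1-/- cells. Icam1 lay nearest to 2210016L21Rik, the prostacyclin receptor Ptgir and Pygo2, and Cd40 to the mitochondrial gene Hadhb, Ccs and Stk38. With 4 values per gene many patterns lie close by, and these likenesses carry no test.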

How the data were processed

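RNA of 8 BMDC libraries was sequenced with a stranded mRNA kit as 35-base read pairs. The authors pooled each group in Cuffdiff, version 1.05 in the submitters' processing notes, and deposited 1 FPKM value per gene and group with 95% bounds (build mm10). The aligner and gene annotation behind this table are not given in the sources used here. Columns were matched to groups by name, and the columns of control and treated WT cells name no genotype and were matched by elimination. From the deposited FPKM, log2(FPKM + 1) differences were computed in Python 3.11.15 (pandas 2.3.3, numpy 2.4.6) for 11397 genes with at least 1 FPKM in a group and an OK status. Combined intervals took the root of the summed squared half-widths and treat the errors of groups as independent. The computation was tested on simulated data. The pseudocount shrinks changes of low genes. Locus starts in the table count from 0 and were raised by 1. All members were named. Also named were all genes of lists with up to 8 measured genes, the 3 with the largest WT change of longer lists, any past the threshold, the 3 nearest patterns (1 gene is not reported here) and neighbouring genes, with others beside them as examples chosen after their values were seen. Members and lists were chosen with earlier results of these data known. Alternatives were another pseudocount, filter, scaling, call rule and threshold.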

Additional observations from a re-analysis of the deposited data

Results flagged for a closer look

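Cd83 drew attention because its value moved one way with ansamitocin-P3 in WT cells (log2 difference 0.30) and the other way in GEF-H1-/- cells (-0.23). The difference between the changes was -0.525, with a combined interval of -1.12 to 0.07 that includes 0. With 1 pooled value per group it was not tested against the spread between libraries.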

How the results depend on the processing

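The table limits what can be said: 1 pooled FPKM per group, unknown depth and bounds that need not cover the spread between animals. No paired analysis was possible because each group has 1 pooled value, and for the same reason no library could be left out. Of 405 values of single members under the alternatives, none moved by more than the half-width of its combined interval. The alternative filters, call rule and threshold cannot change a member's value, so only the pseudocounts and scalings could have moved one. Of the 45 changes, 6 turned sign, all small and all when groups were scaled to a common FPKM sum: Icam1 in the WT drug change and between control genotypes, Icosl and Cd40 between treated genotypes, and Cd86 and Icosl in the difference of drug changes. That scaling moved the median of all genes by a similar amount, to -0.237 in WT. It left 1 member past the threshold in the WT drug change, Cd80 at 1.60, with Pdcd1lg2 at 0.88, and 1 between treated genotypes, Cd80 at -1.35, with Cd83 at -0.76. With a pseudocount of 5 FPKM, 1 member was past the threshold between treated genotypes, as Cd83 came to -0.98. With a threshold of 0.5 the members past it were 4 in WT, 2 in GEF-H1-/- cells, 1 between control genotypes and 3 for the difference of drug changes. In the order WT drug change, GEF-H1-/- drug change, control genotypes, treated genotypes and difference of drug changes, all genes past the threshold numbered 563, 123, 214, 463 and 216. They were 956, 212, 372, 801 and 387 with a pseudocount of 0.1 FPKM, 318, 77, 101, 206 and 123 with 5 FPKM, 1006, 198, 375, 821 and 384 with none, and 2671, 660, 818, 2205 and 1364 with a threshold of 0.5. Asking for bounds apart as well left 70 in GEF-H1-/- cells and 141 for the difference of drug changes. For that difference it was enough that control and treated bounds were apart in either genotype.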
